A study of Mus musculus with 46 samples.

Results

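Wild-type (WT) mouse epiblast at embryonic day 5.5 (E5.5) was compared with WT inner cell mass (ICM) at E3.5, in the 3 WT E5.5 epiblast and 7 WT ICM RNA libraries among the 33 RNA libraries and 46 samples of the series. The libraries were taken by their labels of genotype, stage and tissue, and the comparison ran over the 7182 genes of the deposited table, of which 6022 had a mean of at least 1 FPKM over the 10 libraries and were tested. The E5.5 epiblasts were dissected by hand from embryos taken from the uterus, and the ICMs were freed by immunosurgery, which lyses the outer cells with antibody and complement, from embryos cultured in KSOM medium. Each library came from a single WT embryo, per the labels, by SMART-seq2, which copies polyadenylated RNA at full length, with Tn5 library preparation. Stage therefore cannot be told apart from culture or from the way the tissue was isolated. The other libraries used, and only where named, were 3 KO E5.5 epiblasts and 7 KO ICMs, in which Rbbp5 was disrupted from the zygote on, and 7 single WT cells of the E4.5 epiblast. Knockout was made with Cas9 mRNA and guide RNA or with Cre mRNA in flox/flox zygotes and the labels do not say which of them was used for a given library.

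The ICM is the group of cells inside the blastocyst that gives the epiblast, the founder of the embryo proper, and the primitive endoderm, which goes on to line the yolk sac. Around implantation the epiblast leaves the naive state, in which it resembles embryonic stem cells held in LIF, and enters a formative state in which it forms an epithelium, gains DNA methylation and becomes able to respond to the signals of gastrulation. OCT4 (Pou5f1) and SOX2 are used in both states, whereas factors such as ESRRB, KLF4 and TBX3 belong to the naive one and OTX2 to the formative one.

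Promoters of the genes with the most extreme changes are shown here because the genes that fell furthest shared a feature that the comparison did not use, namely few CpG dinucleotides, the sites of DNA methylation in mammals. Each window runs from 250 bases before to 50 after the annotated start, 5′ to 3′ on the strand of the gene, from RefSeq on GRCm38.p6, with CpG in capitals. The genes are the 4 largest falls and then the 4 largest rises, among named genes, for which a window was found.
Timd2: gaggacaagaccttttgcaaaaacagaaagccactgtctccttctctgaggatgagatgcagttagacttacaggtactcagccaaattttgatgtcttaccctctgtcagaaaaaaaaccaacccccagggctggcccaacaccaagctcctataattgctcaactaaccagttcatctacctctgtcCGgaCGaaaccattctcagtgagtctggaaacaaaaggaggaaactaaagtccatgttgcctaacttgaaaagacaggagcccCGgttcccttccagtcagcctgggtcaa
Pramel6: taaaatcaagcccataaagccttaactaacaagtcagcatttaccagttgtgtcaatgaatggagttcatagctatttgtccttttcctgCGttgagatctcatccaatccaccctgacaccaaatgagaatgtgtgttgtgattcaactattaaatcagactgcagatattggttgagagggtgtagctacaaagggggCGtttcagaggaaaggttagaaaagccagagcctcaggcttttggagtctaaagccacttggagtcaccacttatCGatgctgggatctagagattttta
Sycn: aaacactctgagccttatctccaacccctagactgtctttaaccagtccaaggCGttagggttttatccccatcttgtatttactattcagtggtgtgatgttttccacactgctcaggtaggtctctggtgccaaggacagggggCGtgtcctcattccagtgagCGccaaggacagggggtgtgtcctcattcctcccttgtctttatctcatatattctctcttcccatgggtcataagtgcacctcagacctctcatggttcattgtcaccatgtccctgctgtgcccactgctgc
Pramel4: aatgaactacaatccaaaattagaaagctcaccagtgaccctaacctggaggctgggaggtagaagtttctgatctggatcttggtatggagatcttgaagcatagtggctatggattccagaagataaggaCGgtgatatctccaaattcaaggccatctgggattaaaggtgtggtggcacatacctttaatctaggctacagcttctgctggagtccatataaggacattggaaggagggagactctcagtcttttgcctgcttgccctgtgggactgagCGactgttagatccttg
Slc16a3: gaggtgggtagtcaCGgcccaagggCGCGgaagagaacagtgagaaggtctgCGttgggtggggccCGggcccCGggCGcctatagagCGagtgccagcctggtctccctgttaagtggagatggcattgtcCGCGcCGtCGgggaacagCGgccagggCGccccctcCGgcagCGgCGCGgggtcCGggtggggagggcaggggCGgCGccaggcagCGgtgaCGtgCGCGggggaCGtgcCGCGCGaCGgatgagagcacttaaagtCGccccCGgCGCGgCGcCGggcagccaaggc
Bex1: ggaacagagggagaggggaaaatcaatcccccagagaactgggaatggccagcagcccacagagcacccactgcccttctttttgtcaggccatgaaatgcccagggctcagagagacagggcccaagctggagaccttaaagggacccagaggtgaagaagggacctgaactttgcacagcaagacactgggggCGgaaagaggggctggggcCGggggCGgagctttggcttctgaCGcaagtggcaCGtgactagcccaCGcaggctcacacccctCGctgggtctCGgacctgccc
Ldhb: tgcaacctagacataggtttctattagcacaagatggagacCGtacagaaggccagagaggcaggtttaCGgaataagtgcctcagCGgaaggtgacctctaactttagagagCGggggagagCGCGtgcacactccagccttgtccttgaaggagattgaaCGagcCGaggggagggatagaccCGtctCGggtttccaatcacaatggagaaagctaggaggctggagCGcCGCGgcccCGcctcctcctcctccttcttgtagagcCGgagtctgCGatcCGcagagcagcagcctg
Bex4: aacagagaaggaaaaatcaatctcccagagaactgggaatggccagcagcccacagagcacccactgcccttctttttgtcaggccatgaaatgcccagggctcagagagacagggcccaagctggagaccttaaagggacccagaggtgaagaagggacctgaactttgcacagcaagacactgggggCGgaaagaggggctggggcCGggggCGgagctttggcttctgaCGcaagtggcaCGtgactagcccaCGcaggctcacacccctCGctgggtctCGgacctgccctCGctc
These windows lie at chr11:46707055-46707354 (minus strand), chr2:87506315-87506614 (plus strand), chr7:28540635-28540934 (plus strand), chr4:144058875-144059174 (plus strand), chr11:120948817-120949116 (plus strand), chrX:136215464-136215763 (minus strand), chr6:142507908-142508207 (minus strand) and chrX:136138746-136139045 (plus strand), in the same order. The falling genes had 3, 3, 3 and 2 CpG in 300 bases, and the rising genes 36, 8, 17 and 9. The Bex1 and Bex4 windows share a run of 271 bases of their 300, so these neighbouring X-linked genes are close copies. No label or header says how reads that match several copies were assigned, and the levels of Bex1 and Bex4 and of the Pramel and Trim43 genes are uncertain to that extent.

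FPKM, which divides fragments by transcript length and by the mapped fragments of each library, does not give depth, but the low values placed the relative mapped totals of the 10 libraries within 1 to 1.52 of the smallest. E5.5 epiblasts differed less among themselves than ICMs did: the median SD over genes was 0.21 at E5.5 and 0.52 in ICM on the log2(FPKM + 1) scale. Rank correlations between libraries over genes, which are not independent replicates, were 0.973 to 0.978 within E5.5, 0.847 to 0.935 within ICM and 0.608 to 0.698 between the stages. RNA of Y-linked genes summed to at least 1 FPKM in all 3 E5.5 libraries and in ICM 1, 2, 4 and 7, and to less in ICM 3, 5 and 6. Genes at or above 1 FPKM numbered 5776 ± 34.3 at E5.5 (SD, n = 3) and 5391 ± 219.8 in ICM (SD, n = 7), a difference of 384 genes (exact permutation test, two-sided p = 0.0167, the smallest this design can give).

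Much of the transcriptome differed between the stages. Of the 6022 genes tested with limma, 3388 were called at an adjusted p under 0.05, or 56.3%. Of all tested genes, 2247 (37.3%) were higher and 1141 (18.9%) lower at E5.5. A change of at least 2-fold was seen for 1842 of the genes called higher and 896 of those called lower, and of at least 5 on the log2 scale for 22 and 32. In 2900 of the 3388 called genes, or 85.6%, no E5.5 library overlapped with any ICM library. Over all tested genes, every E5.5 library stood above every ICM in 33.8% and below in 15.9%. The median change over all tested genes was 0.43 on the log2 scale. Quantile normalization brought it to 0.09 and median ratio scaling to 0.10, with 1655 genes called higher and 1498 lower under quantile normalization and 1627 higher and 1451 lower under median ratio scaling, so the excess of rises depends on the scaling. Medians of gene lists are therefore also given relative to that of all tested genes.

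**Figure D1:**
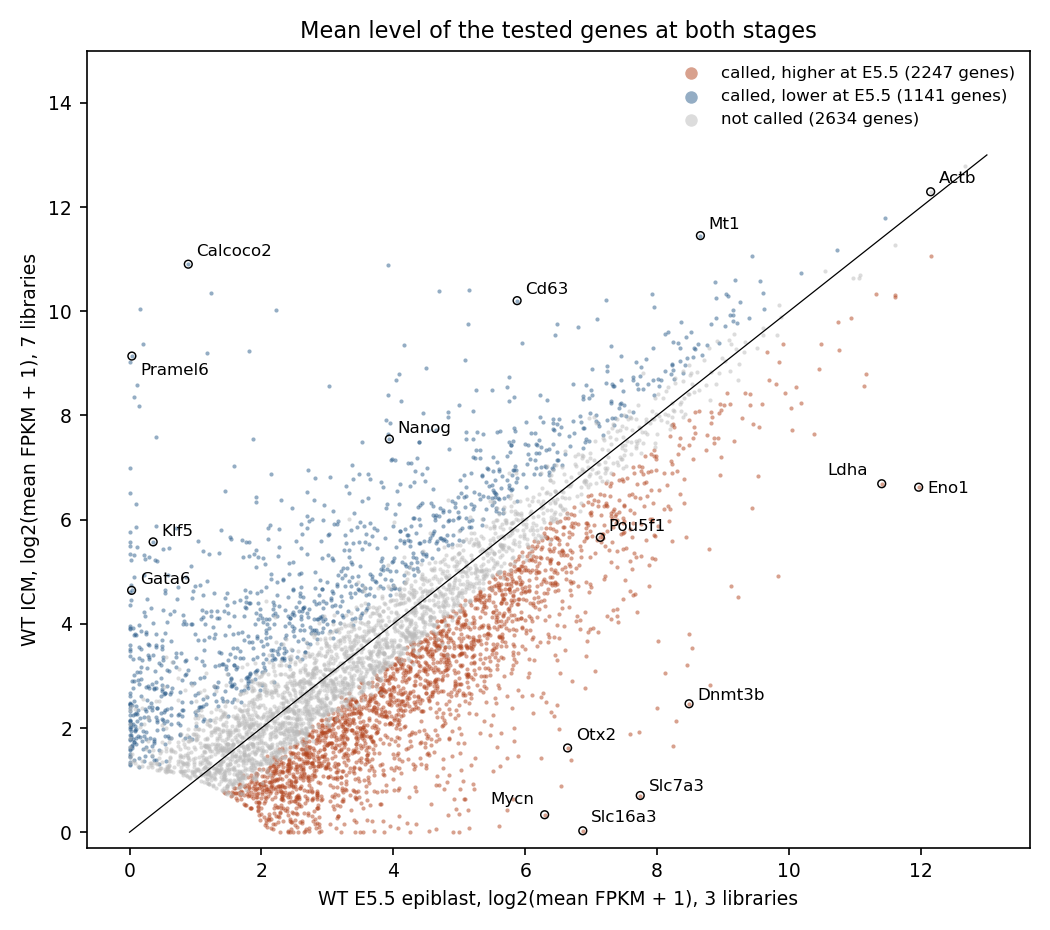
Each point is a tested gene, placed by its mean level in 3 WT E5.5 epiblasts (x axis) and 7 WT ICMs (y axis), both as log2(mean FPKM + 1); the line marks equal levels. Dnmt3b, Slc16a3 and Eno1 lie far below the line, Calcoco2 and Pramel6 far above it, and Actb close to it.

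Genes that mark naive pluripotency fell. Of 15 tested, 14 were lower, none higher, and all 14 had every E5.5 epiblast below every ICM, which held for 15.9% of all tested genes. Their list had a median change of -2.87 on the log2 scale, or -3.30 relative to all tested genes. Nanog, the homeobox factor needed to found the epiblast, had 18.2, 11.4 and 13.4 FPKM in the E5.5 epiblasts, against 112.8 to 349.7 (median 165.8) in the ICMs. Nanog RNA was thus still present at E5.5 in each library, below every ICM (log2 change -3.53, SE 0.31, adjusted p = 7.6e-07).
Klf5, a Krüppel-like factor of the early blastocyst, was nearly lost, with 0.457, 0.0861 and 0.301 FPKM at E5.5 against 30.1 to 68.0 (median 45.0) in ICM. Esrrb, an orphan nuclear receptor of the naive network, had at most 0.0739 FPKM at E5.5 against 2.79 to 8.95 in ICM. Tbx3, a T-box factor, had 0.0484, 0 and 0.713 FPKM at E5.5 and 8.103 to 37.9 in ICM. Klf2 was listed at 0 in all 3 E5.5 epiblasts. The log2 changes were -5.17 for Klf5, -2.64 for Esrrb, -3.86 for Tbx3 and -2.26 for Klf4. Fbxo15, an F-box gene used as a reporter of embryonic stem cells, fell by 7.44. Tdh, the threonine dehydrogenase of mouse embryonic stem cells, did not pass the test (2.31 ± 1.08 FPKM at E5.5, SD, n = 3, and 4.43 ± 2.94 in ICM, SD, n = 7).

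Genes of pluripotency used at both stages rose. In their list, 13 of 14 were called higher and none lower, with a median of 2.49, or 2.07 relative to all tested genes. Pou5f1 had 190.4, 126.0 and 103.4 FPKM at E5.5, against 20.3 to 81.7 (median 46.9) in ICM. Each E5.5 epiblast stood above each ICM, with a log2 change of 1.6 (SE 0.41, adjusted p = 0.0044).
Utf1, a chromatin-bound factor of undifferentiated cells, had 820.8, 696.7 and 687.6 FPKM at E5.5 and 57.4 to 214.1 in ICM. Sall4, a zinc-finger partner of OCT4, had 175.4, 192.1 and 231.2 FPKM at E5.5 and 52.7 to 95.5 in ICM. Lin28a, which binds let-7 precursors and holds back their maturation, averaged 43.2 ± 3.66 FPKM at E5.5 (SD, n = 3) and 2.66 ± 1.52 in ICM (SD, n = 7). Zscan10 rose by 4.02 on the log2 scale, Tcf7l1 by 4.01 and Trim71 by 3.0. Sox2 was low at both stages (3.46 ± 1.30 FPKM at E5.5, n = 3, and 1.05 ± 0.521 in ICM, n = 7, SD), and its call was lost under quantile normalization and without E5.5 library 1. Foxo1 did not pass the test (3.73 ± 1.17 FPKM at E5.5 and 3.02 ± 1.43 in ICM, SD), and its small difference changed sign under both scalings. Under median ratio scaling 12 members were called higher, and under quantile normalization 11.

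Formative and primed epiblast genes held some of the largest rises. Of 15 tested, 13 were higher and none lower, with a median of 4.20, or 3.78 relative to all tested genes. Otx2, a homeobox factor that drives the exit from the naive state, had 92.8, 104.7 and 99.2 FPKM at E5.5 against 0 to 5.36 (median 2.21) in ICM. Lef1, a nuclear effector of WNT signals, had 27.6, 32.2 and 33.1 FPKM at E5.5 and was listed at 0 in all ICMs but ICM 1, which had 0.0425.
Pim2, a serine/threonine kinase that favours survival, had 524.8, 419.0 and 390.0 FPKM at E5.5 against 2.78 to 9.79 in ICM. Mycn, a MYC family factor, had 76.1, 90.2 and 66.1 FPKM at E5.5 against at most 0.792 in ICM. Slc7a3, a transporter of cationic amino acids, rose furthest of the named genes, with 131.6, 214.4 and 294.0 FPKM at E5.5 against at most 2.16 in ICM (log2 change 7.10, SE 0.40, adjusted p = 1.6e-08). The log2 changes were 5.26 for Otx2, 4.99 for Lef1, 6.07 for Pim2, 5.98 for Mycn, 4.41 for Ccnd1 and 3.02 for Myc. Grhl2 (9.28 ± 2.10 FPKM at E5.5 and 9.15 ± 4.71 in ICM, SD) and Uchl1 (48.6 ± 5.56 and 50.7 ± 29.1 FPKM, in the same order) did not pass the test, and the sign of their small differences turned under both scalings.

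**Figure D2:**
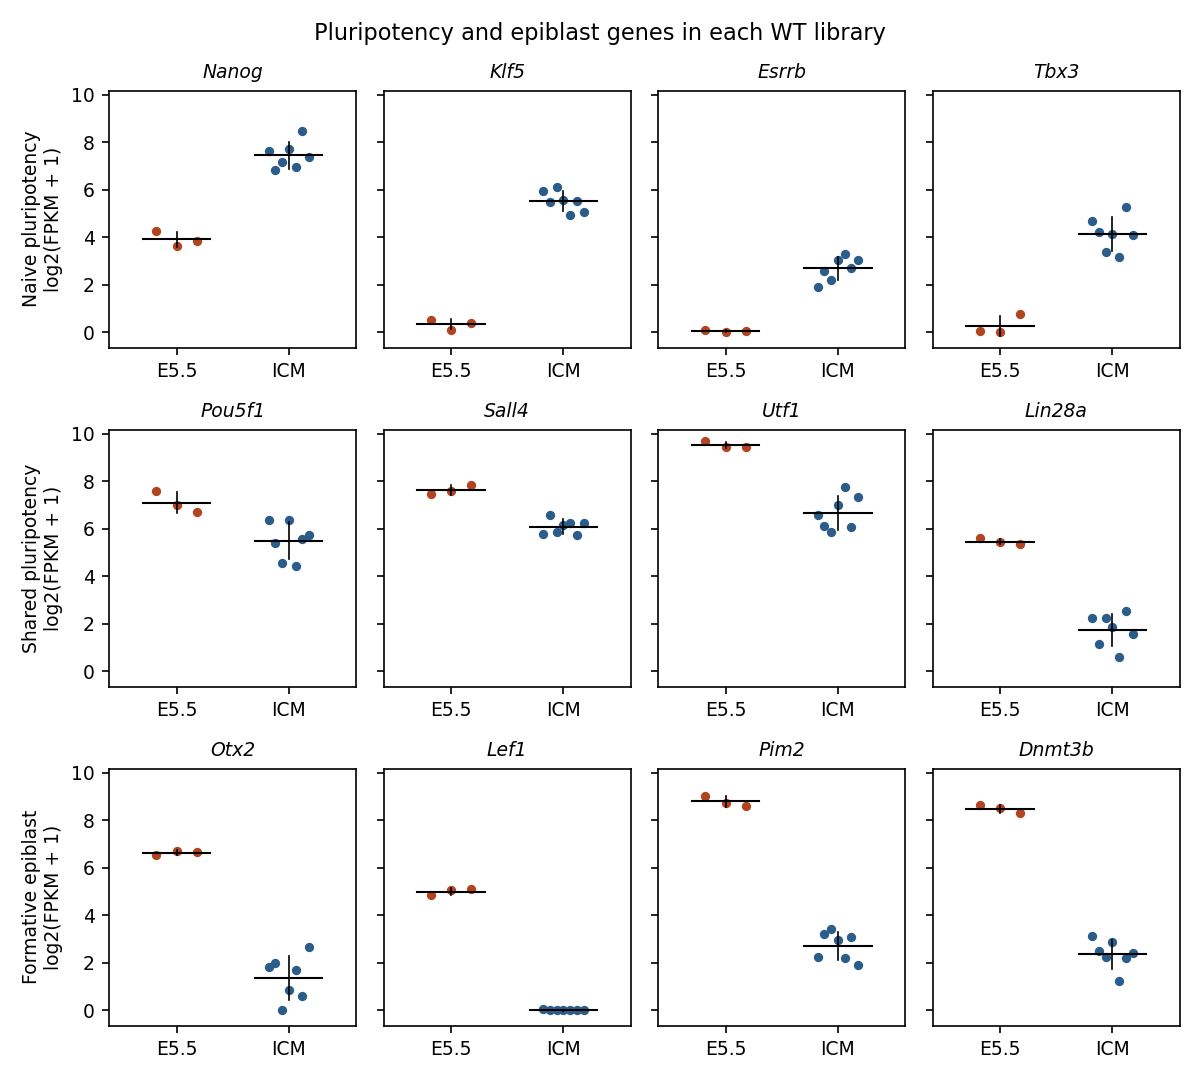
Level of 12 genes as log2(FPKM + 1) (y axis) in the 3 WT E5.5 epiblasts and 7 WT ICMs (points); horizontal lines are means and vertical lines SDs. The naive genes of the top row are lower in every E5.5 epiblast and the genes of the other 2 rows higher in every E5.5 epiblast than in any ICM.

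Markers of the other lineages of the blastocyst were mostly lower at E5.5. Of 14 primitive endoderm genes tested, 10 were lower and 1 higher. Gata6, the GATA factor that specifies primitive endoderm, had 0.0659, 0 and 0 FPKM at E5.5 and 17.2 to 31.9 (median 25.1) in ICM. Every ICM thus held Gata6 RNA and the E5.5 epiblasts held next to none (log2 change -4.58). Pdgfra, the growth factor receptor of primitive endoderm, fell by 2.53. Nid2, a basement membrane protein, was the member that rose (2.00), and its call was lost without E5.5 library 1 or 2, with a sex covariate and among the libraries with Y-linked RNA. The E5.5 libraries carried at most 0.118 FPKM of Gata4, and at most 0.0697 of Foxa2 and 0.0318 of Sox7. The summed level of the whole primitive endoderm list was 33.6 to 42.5 FPKM at E5.5 and 79.0 to 280.9 in ICM. Of the tissues that a dissected E5.5 epiblast could carry along, visceral endoderm had 4 of 6 tested markers lower and 1 higher. The one that rose was Car4, a carbonic anhydrase (log2 change 6.01), which alone gave 252.0, 331.4 and 462.3 FPKM at E5.5. The sum of the visceral endoderm list was 264.6 to 472.7 FPKM at E5.5 and 34.8 to 168.0 in ICM, higher in every E5.5 epiblast. Amn, an uptake receptor subunit of that endoderm, did not pass the test. Of 6 tested markers of extraembryonic ectoderm 3 were lower and 2, Ascl2 among them, higher, and of 6 of blood and maternal tissue 4 were lower and none higher, with list sums at E5.5 of 30.8 to 52.6 and 5.46 to 10.2 FPKM, against 237.3 to 414.9 and 33.5 to 60.1 in ICM. In bulk RNA of this kind, fewer cells of a type and less RNA per cell cannot be told apart.

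RNA of genes that mark trophectoderm, the outer layer that immunosurgery is meant to remove, was mostly lower at E5.5 and varied between ICMs. Of 20 trophectoderm genes tested, 13 were lower and 2 higher at E5.5, with a median of -2.3. Gata3, a GATA factor of trophectoderm, had 0.555, 0.129 and 0.596 FPKM at E5.5. In ICMs 1 to 7 it had 186.5, 11.2, 48.5, 26.7, 1.47, 16.2 and 6.71 FPKM, so ICM 1, 3 and 4 stood highest. The whole list summed to 224.7, 180.0 and 216.0 FPKM in the E5.5 epiblasts and to 615.5 to 2344 in the ICMs, with ICM 1 highest and ICM 6 lowest. Cdx2, which defines the lineage, was listed at 0 in all 3 E5.5 epiblasts and reached 4.20 FPKM in ICM 1, and Elf5 reached 1.14 in ICM 5. Krt8, a keratin of simple epithelia, did not pass the test, with 239.9 FPKM in ICM 1. The members that rose were Cldn7, a tight junction claudin, and Ascl2, a helix-loop-helix factor, and neither rise was called under either scaling. Against ICM 2, 5, 6 and 7 alone, 3330 genes were called, 3081 of them among the 3388 called with every library. The trophectoderm list then had 10 of 19 tested genes lower and 4 higher. Its median was -1.43, a smaller fall than the -2.3 with every library. The part of trophectoderm RNA in the other falls was not tested beyond this. Ly6a, which is in this list, had 0.164, 0 and 0.306 FPKM at E5.5 and 227.1 to 917.7 (mean 661.7) in ICM, a large part of the list sums. ICM 6, with the lowest sum, was also lowest for Ly6a, while its Gata3 stood above that of ICM 2, 5 and 7.

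DNA methylation genes rose. Of 13 tested, 9 were higher and 1 lower, with a median of 2.73, or 2.3 relative to all tested genes. Dnmt3b, which writes new DNA methylation in the implanting embryo, had 395.0, 361.4 and 314.9 FPKM at E5.5 and 1.33 to 7.67 (median 4.30) in ICM. Dnmt3a, its relative, had 306.6, 244.5 and 281.0 FPKM at E5.5 and 5.08 to 9.10 (median 7.01) in ICM. The log2 changes were 6.11 (SE 0.34, adjusted p = 1.3e-08) for Dnmt3b and 5.08 (SE 0.23, adjusted p = 1.3e-09) for Dnmt3a.
Dnmt1, which copies methylation at replication, rose by 2.86, its recruiter Uhrf1 by 3.09 and the chromatin remodeller Hells by 3.09. The TET enzymes, which oxidise methylcytosine, moved apart: Tet1 averaged 33.9 ± 5.58 FPKM at E5.5 and 7.73 ± 1.42 in ICM, and Tet2 0.416 ± 0.211 at E5.5 and 18.3 ± 6.10 in ICM (SD). Tet1 rose by 2.00 and Tet2 fell by 3.71. Dnmt3l, the cofactor without catalytic activity (47.9 ± 10.9 FPKM at E5.5 and 31.2 ± 13.7 in ICM, SD), Uhrf2 and Mbd2 did not pass the test. Among germline genes kept silent by DNA methylation, 5 of 13 (38.5%) were higher and 3 (23.1%) lower, near the 37.3% and 18.9% of all tested genes. The counts were 2 and 3 under median ratio scaling and 3 and 3 under quantile normalization. Tuba3a and Ddx4 rose by 4.01 and 2.22, and Tex19.1 averaged 20.04 ± 9.27 FPKM at E5.5 and 178 ± 38.6 in ICM (SD).

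Among chromatin regulators, genes of H3K9 methylation rose and Polycomb genes were called about as often as genes in general. Of 14 genes of H3K9 methylation, the mark of silent chromatin, 11 were higher and none lower. Ehmt1, an H3K9 methyltransferase, had 72.6, 77.0 and 73.4 FPKM at E5.5 and 1.85 to 8.77 (median 4.87) in ICM. Cbx1 and Cbx5, which read the mark, rose by 3.52 and 2.38. All 5 H3K4 demethylases tested were higher, and 3 were under either scaling. Of 11 genes of the H3K4 methyltransferase complexes, 6 were higher and 1 lower, among them Men1 (2.61) and Cxxc1 (2.24). Of 25 Polycomb genes, 10 (40%) were higher and 5 (20%) lower, close to the 37.3% and 18.9% of all tested genes, against 9 and 8 under median ratio scaling and 8 and 9 under quantile normalization. Phc1, a subunit of Polycomb repressive complex 1, rose by 4.85, with 79.6, 73.2 and 69.7 FPKM at E5.5 and 0.751 to 2.52 in ICM. Of 15 imprinted genes, 9 were higher and 2 lower, against 7 and 5 or 6 and 5 under the scalings. Peg3 had 35.5, 20.7 and 37.3 FPKM at E5.5 and at most 1.65 in ICM.

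Signalling genes changed in part, and their counts stand beside 37.3% higher and 18.9% lower among all tested genes. Of 13 tested genes of the Nodal pathway, which patterns the epiblast, 7 (53.8%) were higher and 1 (7.69%) lower. The ligand Nodal had 15.8, 8.53 and 15.9 FPKM at E5.5, and was listed at 0 in 5 ICMs, with 0.731 FPKM in the highest. Its co-receptor Tdgf1 rose by 2.25 and the nuclear partner Foxh1 by 2.23, while Pcsk6, a protease that matures the ligand, fell by 2.45. Lefty2, the feedback inhibitor, had 3.08, 4.09 and 2.04 FPKM at E5.5 and was listed at 0 in all 7 ICMs.
In the FGF and ERK pathway, 4 of 12 (33.3%) were higher and 3 (25%) lower, near the shares of all tested genes. The ligand Fgf4 had 17.0, 14.3 and 13.6 FPKM at E5.5 and 0.130 to 1.79 in ICM, and its receptor Fgfr2, used by primitive endoderm and trophectoderm, 0.248, 1.15 and 0.773 at E5.5 and 3.02 to 19.06 in ICM. The ligand thus rose by 3.03 and this receptor fell by 2.46. Etv5, a transcription factor switched on by ERK, rose by 2.80, and Fos, an immediate early gene, fell by 3.49. In the WNT pathway 7 of 14 (50%) were higher, among them Axin1 (2.26), a scaffold for the destruction of beta-catenin. The 3 that were lower included Porcn (-3.93), the acyltransferase that WNT ligands need for secretion. Of 5 BMP genes, 2 (40%, near the share of all tested genes) were higher, with Id1, a target, at 4.49, while Id3, another, did not pass the test. Of 5 genes of the LIF pathway, Stat3 (-1.6) and Klf4 were lower and Pim3 (2.90) and Socs2 higher. The call of Socs2 was lost under either scaling.

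Glycolysis, which breaks glucose down to pyruvate and lactate in the cytosol, was the metabolic list with the largest median change. Of 18 genes, 15 were higher and none lower, with a median of 2.79, or 2.36 relative to all tested genes. Summed over the list, the E5.5 epiblasts had 12110, 10580 and 11380 FPKM, and the ICMs 598.8 to 1257. Eno1, the enolase of most tissues, had 4093, 3609 and 4294 FPKM at E5.5 and 37.9 to 176.7 (median 88.2) in ICM, and was among the 5 genes with the highest level at E5.5. Ldha, which makes lactate, had 2988, 2636 and 2510 FPKM at E5.5 and 21.9 to 179.3 in ICM.
Slc16a3, the transporter that exports lactate, had 117.4, 129.8 and 101.4 FPKM at E5.5 and was listed at 0 in all ICMs but ICM 4, with 0.133. The other subunit gene of lactate dehydrogenase, Ldhb, rose by 6.63, the phosphofructokinase Pfkl by 6.28, Pdk1, a kinase that inhibits pyruvate dehydrogenase, by 5.34, Pgk1 by 4.62 and Aldoa by 2.64. Slc2a1, the glucose transporter of many cell types, rose by 1.62, a call lost when KO libraries were fitted together with WT. Slc2a3 (34.6 ± 8.78 FPKM at E5.5 and 24.6 ± 31.6 in ICM, SD), Hk1 and Pfkfb2 did not pass the test. Under median ratio scaling 13 members were higher, and under quantile normalization 14 were higher and 1 lower.

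Genes of mitochondrial energy supply went the other way, by smaller amounts. Of 62 respiratory chain genes, 31 were lower and 4 higher, with a median of -0.47, or -0.90 relative to all tested genes. The list summed to 15530, 14360 and 14980 FPKM at E5.5 and to 20430 to 30150 in ICM, without overlap. Cox8a, a subunit of cytochrome oxidase, had 745.0, 736.7 and 598.0 FPKM at E5.5 and 1764 to 2690 in ICM, and Cox7a1, the form of heart and muscle, fell by 3.20. Among those that rose were Sdha (1.70), Ndufs1 (0.92) and Cyc1 (0.62). The calls of Ndufs1 and Cyc1 were lost under median ratio scaling. Of 25 genes of the tricarboxylic acid cycle, 4 (16%) were higher and 5 (20%) lower, against 37.3% and 18.9% of all tested genes. The counts were 2 and 9 under median ratio scaling and 3 and 6 under quantile normalization.
Of 20 genes of fatty acid oxidation and lipid droplets, 12 were lower and 4 higher, and 2 were higher and 13 lower under each scaling. Acadl, a long-chain acyl-CoA dehydrogenase, averaged 9.33 ± 1.77 FPKM at E5.5 and 132 ± 36.5 in ICM (SD), and Plin2, a coat protein of lipid droplets, 8.69 ± 1.43 at E5.5 and 99.2 ± 29.6 in ICM (SD). Acadl fell by 3.65 and Plin2 by 3.32. The 4 higher were Acaa1a, Eci1, Ech1 and Plin3, and the calls of Ech1 and Plin3 were lost under both scalings. Of 19 cholesterol synthesis genes, 10 (52.6%) were higher, Acat2 (3.64) and Sqle (2.5) among them, and 2 (10.5%) lower. Under median ratio scaling 8 were higher, and under quantile normalization 7. Of 20 genes of serine and one-carbon metabolism, 9 (45%) were higher and 3 (15%) lower, near the 37.3% and 18.9% of all tested genes. The list median was 0.35 above that of all tested genes. The rises included Mthfd1l (3.25), Mthfd2 (2.71) and Shmt2 (2.55), enzymes of the mitochondrial folate route.

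**Figure D3:**
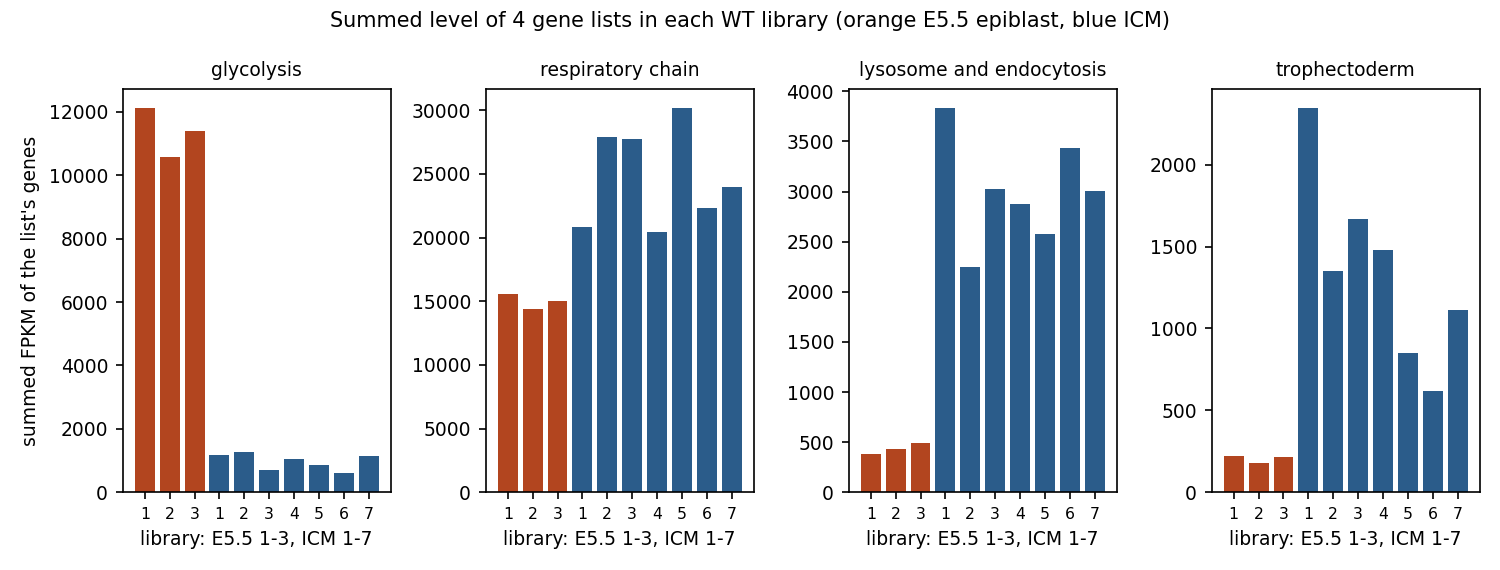
Summed FPKM (y axis) of the genes of 4 lists in each WT library (x axis, E5.5 epiblast 1 to 3 and ICM 1 to 7). Glycolysis is at 10580 to 12110 in the E5.5 epiblasts and at most 1257 in the ICMs, the other lists are lower in every E5.5 epiblast, and the trophectoderm sum varies from 615.5 to 2344 among ICMs.

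Most genes of the lysosome list fell. Of 25 tested genes, 18 were lower, 1 higher and 6 not called, with a median of -2.39, or -2.81 relative to all tested genes. Summed, it had 384.0, 429.3 and 492.6 FPKM at E5.5 and 2248 to 3831 in ICM. Cd63, a membrane protein of late endosomes, had 57.0, 47.3 and 68.9 FPKM at E5.5 and 691.3 to 1571 in ICM, and the protease Ctsd 53.2, 51.3 and 50.9 at E5.5 and 253.3 to 543.1 in ICM. Cd63 fell by 4.30, Scarb2, a lysosomal membrane receptor, by 3.46, Ctsd by 2.78 and Ctsb by 2.39. Ctsf, another cathepsin, was the member that rose (3.66 ± 0.817 FPKM at E5.5 and 0.233 ± 0.412 in ICM, SD). Of 14 S100 and annexin genes, which bind calcium, 10 were lower and 1 higher. S100a11 fell by 4.44 and Anxa2 by 4.29, and the rise of S100a1 was lost under either scaling. Metallothionein Mt1 averaged 402 ± 122 FPKM at E5.5 and 2799 ± 1628 in ICM (SD), and Sod2, a mitochondrial superoxide dismutase, fell by 2.49.

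Genes of growth and division rose in larger numbers than they fell, as did all tested genes (37.3% higher, 18.9% lower). Of 43 replication genes, 28 were higher and 1, the thymidine kinase Tk1, lower, a call lost without E5.5 library 2 or 3. Under median ratio scaling the counts were 19 and 2, and under quantile normalization 23 and 1. Mcm2, a subunit of the replicative helicase, had 218.8, 187.6 and 199.9 FPKM at E5.5 and 8.31 to 42.9 in ICM. Of 14 genes of G1 cyclins and inhibitors, 10 were higher and 2 lower. Cdk4, the kinase of D cyclins, had 1317, 1020 and 1156 FPKM at E5.5 and 255.6 to 332.9 in ICM, and Cdkn1a, the CDK inhibitor p21, 47.3, 36.8 and 84.3 at E5.5 and 182.4 to 581.9 in ICM.
Cdk4 thus rose by 1.96 and Cdkn1a fell by 2.5. Of 39 mitosis genes, 21 were higher and 6 lower, against 14 and 10 under median ratio scaling, and Pttg1, securin, fell by 3.43. The median of the mitosis list was only 0.21 above that of all tested genes. Its summed level was lower in every E5.5 epiblast (3114 to 3512 FPKM) than in any ICM (3716 to 4757). Of 28 ribosome biogenesis genes 24 were higher and none lower, and at least 17 were higher under either scaling. Ncl, nucleolin, averaged 214 ± 9.77 FPKM at E5.5 and 38.6 ± 8.94 in ICM (SD). Of 32 spliceosome genes 21 were higher and 3 lower, and of 90 translation factor and tRNA synthetase genes 52 were higher and 8 lower. In the cytoskeleton list 24 of 45 were higher and 6 lower. Stmn1, which destabilises microtubules, rose by 3.27, and of the lamins of the nuclear envelope Lmnb1 rose by 2.44 and Lmna fell by 1.88. Bax, an effector of apoptosis, had 385.8, 327.1 and 357.5 FPKM at E5.5 and 7.55 to 21.8 in ICM.

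**Figure D4:**
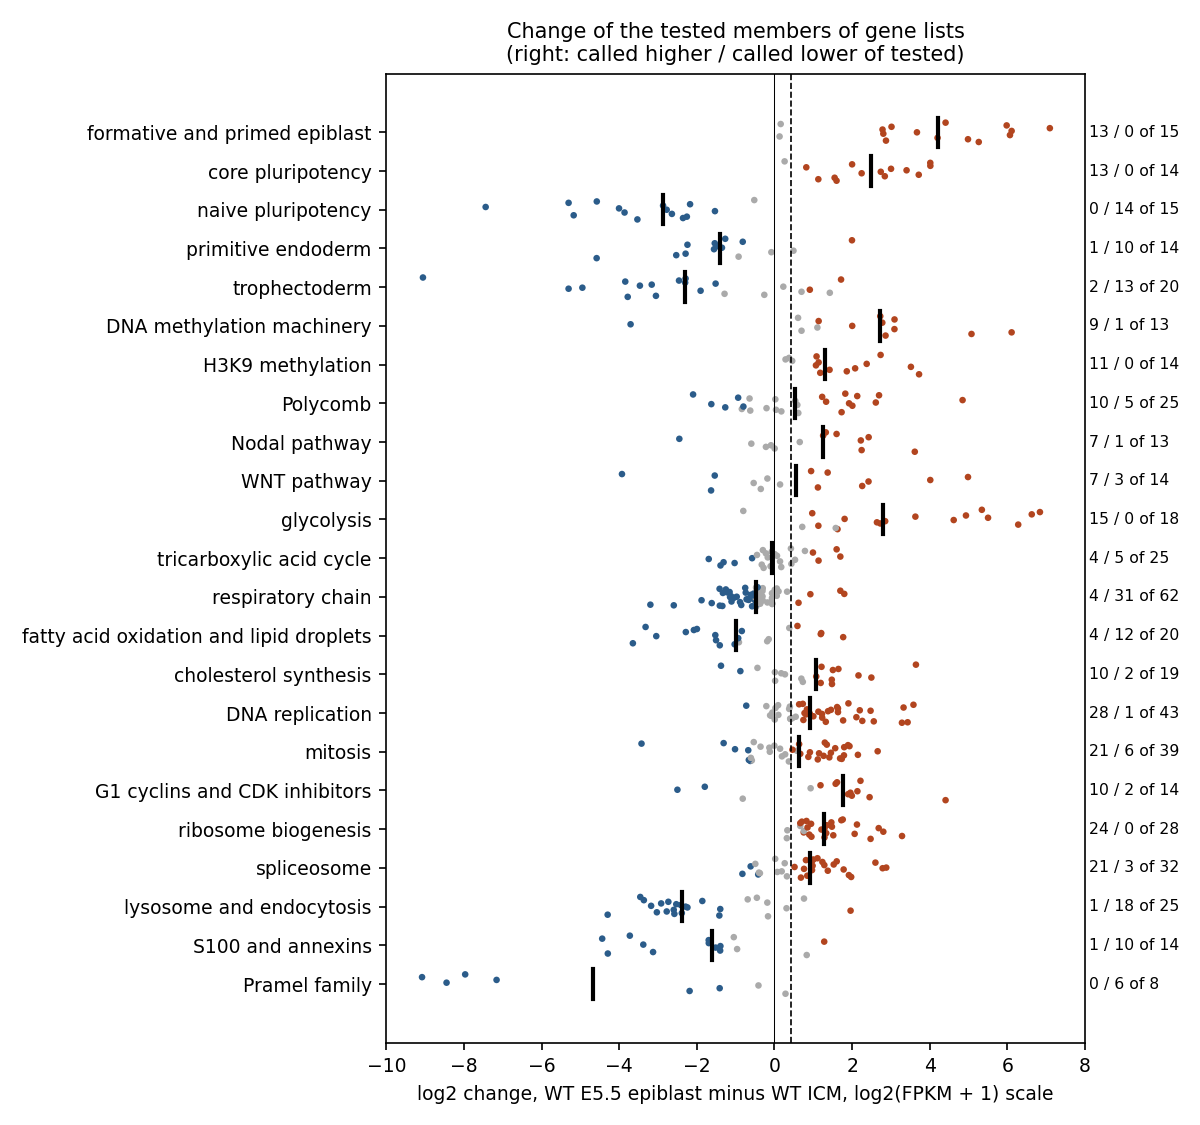
Log2 change, WT E5.5 epiblast minus WT ICM (x axis), of the tested members of 23 gene lists (rows); orange points were called higher, blue lower, grey not called, black bars are list medians and the dashed line is the median of all tested genes, 0.43. Formative epiblast and glycolysis lie to the right, with medians of 4.20 and 2.79, and Pramel, naive pluripotency and lysosome to the left.

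Most of the largest falls were in genes near 0 at E5.5. Calcoco2, an autophagy receptor, had 1.4, 0.194 and 0.969 FPKM at E5.5 and 1558 to 2350 (median 1908) in ICM, a log2 change of -10.06 (SE 0.20, adjusted p = 5.2e-13). Members of the Pramel family, leucine-rich repeat genes, were also among the largest falls. Pramel6 had 0.0743, 0 and 0 FPKM at E5.5 and 438.3 to 816.1 in ICM, and Pramel4, Pramel7 and Pramel5 fell by 8.45, 7.97 and 7.16. In all, 6 of 8 Pramel genes tested were lower. Sycn, which encodes a protein of zymogen granules in the pancreas, was listed at 0 in all 3 E5.5 epiblasts, against 292.8 to 939.9 FPKM in ICM. Timd2, a receptor for ferritin, had 0, 0 and 0.333 FPKM at E5.5 and 407.0 to 2243 in ICM. Sat1, which acetylates polyamines, was still present at E5.5, with 8.71, 12.9 and 20.6 FPKM there, against 892.4 to 4040 in ICM.
There were 30 genes with at least 10 FPKM in every ICM and under 1 in every E5.5 epiblast, Klf5 and Gata6 among them, and 16 the other way, Lef1, Mycn, Nnat and Zic5 among them. The rises outside the lists named so far included Bex1 (312 ± 23.5 FPKM at E5.5 and 3.39 ± 5.0 in ICM, SD), Mdk, the heparin-binding growth factor midkine (5.64), Hes6 (5.82), and Ifitm1 (5.27) and Ifitm3 (4.25), interferon-induced membrane proteins. Ftl1, Actb and Ubb, among the highest genes in ICM, did not pass the test.

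The promoters of falling genes held fewer CpG. Of the 4669 tested genes with a window, the median was 22 CpG in 300 bases, and it was 22.5 for the 1754 genes called higher and 19 for the 893 called lower. Under 5 CpG were found in 3.08% of those called higher, 11.2% of those called lower and 5.16% of all. The share was 50% for the 22 genes with a fall of at least 5 on the log2 scale and a window, and 5% for the 20 with a rise of that size. By the median, both sets had fewer CpG than the 22 of all tested genes. It was 4.5 for those falls and 14.5 for those rises, so a lower count was not particular to falls. Of the largest falls with a window, 9 of 11 had under 5 CpG, Sat1 (21) and Wfdc15a (9) being the others. Of the largest rises, 1 of 13 did, Pla2g1b with 2. These shares are a description of the RefSeq windows, with no test.

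Levels in the E4.5 cells are set beside both stages with no test, since the 7 cells come from embryos that the labels do not name and their columns may have been made separately. For genes called lower, the median of the cells was nearer the E5.5 mean than the ICM mean in 896 of 1141 (78.5%), and for genes called higher in 999 of 2247 (44.5%). A gene missed by the assay in single cells has a lower median there, which is nearer E5.5 for a fall and nearer ICM for a rise. In at least 1 cell, 545 of the 1141 genes called lower and 1008 of the 2247 called higher were listed at 0. Dnmt3b had medians of 4.30 FPKM in E3.5 ICM, 25.8 in the E4.5 cells and 361.4 at E5.5, and Otx2 2.21, 11.3 and 99.2 in the same stages. Slc7a3 was at 181 FPKM in the cells, close to E5.5, whereas Lef1 and Ldhb had a median of 0 there. Nanog had 165.8, 121 and 13.4 FPKM at E3.5, E4.5 and E5.5, and Klf5 45.0, 57.5 and 0.301, so the median of the cells lay within the range of the ICMs for both. Gata6 had a median of 0 in the cells and 25.1 FPKM in ICM. Calcoco2 had medians of 1908 FPKM in ICM, 64.4 in the cells and 0.969 at E5.5.

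**Figure D5:**
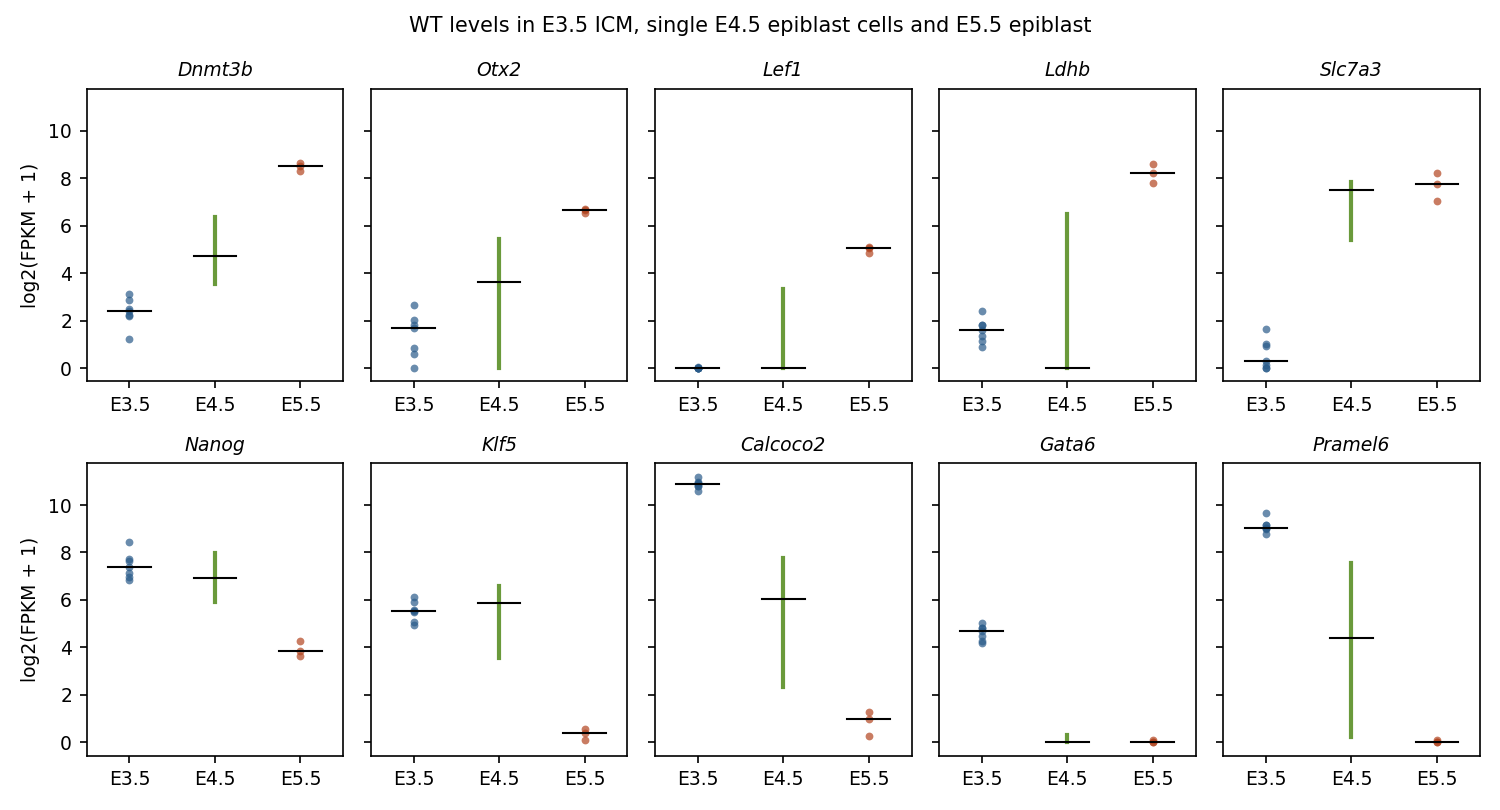
Levels as log2(FPKM + 1) (y axis) of 10 genes in WT E3.5 ICM and E5.5 epiblast (points, with the median as a line) and in 7 single WT E4.5 epiblast cells (bar from the lowest to the highest cell, with the median). Dnmt3b and Otx2 are at a level in between at E4.5, Slc7a3 is already high, and Nanog and Klf5 have medians within the range of the ICMs.

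The same change was then measured in Rbbp5 KO embryos, to see where the WT change differs from it. RBBP5 is a core subunit of the complexes that methylate H3K4. Rbbp5 RNA was not analysed here, so the KO labels were not checked by it. The difference of the changes, KO minus WT, was called for 827 of 5917 genes (14%), and 515 of the 3388 genes called in WT, or 15.2%, were among them. Of the 827, 627 were higher and 200 lower, against 407 and 398 under quantile normalization and 340 and 267 under median ratio scaling, and 458 were called without KO E5.5 library 1. The median change over all genes was 1.03 in KO, and the median difference 0.56. The log2 change of Slc16a3 was 3.99 in KO and 6.84 in WT, with a difference of -2.85 (SE 0.37, adjusted p = 1.7e-05). Nnat, an imprinted gene, had a difference of -2.83, and Calca, Bcl11a and Dtx1 of -3.40, -2.81 and -3.0, so the change of each was smaller in KO than in WT. The glutathione transferase gene Gsto1 had 38.2, 25.5 and 39.8 FPKM in WT E5.5 epiblasts and 893.9 to 2245 in WT ICMs, and averaged 1570 in KO E5.5 epiblasts and 1299 in KO ICMs, a difference of 5.52. H19, an imprinted RNA, averaged 484 FPKM in KO E5.5 epiblasts and had 2.57, 3.99 and 2.46 in WT ones, with 0 listed in every ICM of either genotype.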

How the data were processed

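The authors deposited FPKM values per gene and library in 1 table of 7186 lines; 2 gene names stood more than once, and leaving out their 4 lines left 7182 genes. The mm10 build and, among aligners, STAR 2.7.3 and Bowtie2 2.3.5, with Trim Galore 0.6.4 for trimming, stand in the submitters' processing notes, which do not say which belongs to the RNA libraries. The tool that made the FPKM is not stated there. H3K4me3, ATAC and methylation data were not analysed here.

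Values were tested as log2(FPKM + 1) with limma 3.58.1 in R 4.3.3 (trend, robust empirical Bayes), on genes whose FPKM averaged at least 1 across the compared libraries, with Benjamini-Hochberg adjustment over all of them and a threshold of 0.05. The pseudocount understates changes of low genes. On simulated data of 6022 genes, 50 genes were given each true log2 change of 1, -1, 2 and -2. Each simulated gene had the same spread at both stages. Of genes with a true change of 2, 76% were recovered, and of those with 1, 20%, and 5.83% of calls were false. In the data 56.3% of genes were called and the spread differed between the stages. These rates therefore do not carry over to the comparison itself. The difference of changes was fitted over the 4 WT and KO embryo groups. Of the tested genes, 5715 matched RefSeq. The labels name each library as a single embryo, and replicate numbers were given within each group.

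This comparison, its members and the 53 gene lists were chosen with earlier results of these data known, so counts over lists are descriptions. Named were the 15 largest changes each way among called genes without overlap and with a mean of 10 FPKM or more on the higher side, leaving out clone, pseudogene, small RNA and Y-linked names and Xist; up to 4 called members per list, by smallest p; the 5 highest genes of each stage; and 5 genes each way for the difference. These were 194 genes, beside a few that are not reported here. A further 54, list members that make a group readable, were named after their values were seen, and so were a few lineage markers given by level alone.

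Other pseudocounts, filters, scalings, weights, covariates, a replicate block, other fits and leaving out each library were tried as alternatives. Comparing libraries with Y-linked RNA alone, leaving out ICM 1, 3 and 4, and leaving out KO ICM 1, 4 and 6 were chosen after seeing the data.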

Additional observations from a re-analysis of the deposited data

Results flagged for a closer look

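In 19 of the 194 genes named by rule, 1 ICM stood apart from the other 6 by more than the gap that chance gives in about 1 in 20 groups. In 7 of them the other 6 ICMs were listed at 0, so that any trace in the seventh stands apart, and the remaining 12 were 6.19% of the genes, close to 1 in 20. ICM 6 held 6 of these: it was highest for Ccng1 (144.3 FPKM), Snx3 (502.3) and Sod2 (246.9) and lowest for Ceacam10 (40.0), Ifitm2 (31.7) and Ly6a (227.1). ICM 3 was highest for Mt1 (6377 FPKM) and Pramel6 (816.1) and lowest for Sucla2 (127 FPKM). ICM 2 was highest for Bcor (2.2 FPKM) and Grb10 (1.24), and ICM 5 was lowest for Kdm5b (9.30 FPKM) and highest for Gjc1 (0.4001). The others were traces in 1 ICM of genes near 0 there: Lef1 (0.0425), Myl9 (0.0991) and Podxl (0.153) in ICM 1, Col18a1 (0.398) and Slc16a3 (0.133) in ICM 4, and Stmn2 (0.451) in ICM 7, all in FPKM.

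The change from ICM to E5.5 epiblast differed between KO and WT embryos, by the test of the difference itself, in the 10 genes named for the size of this difference. The log2 change was larger in KO for H19 (by 6.76), Gsto1 (5.52), Rhox4a (4.91), Rhox4e (4.35) and Rhox4c (4.14), of which H19 and the Rhox4 genes, homeobox genes of an X-linked cluster of close copies, were listed at 0 in every ICM. It was smaller in KO for Calca (-3.40), Dtx1 (-3.0), Slc16a3 (-2.85), Nnat (-2.83) and Bcl11a (-2.81).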

How the results depend on the processing

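Called genes, 3388 in all, came to 3204 with a pseudocount of 0.1, 3442 with 5, 3649 without a filter, 2433 with a filter of 5 FPKM (1491 of them higher, where fewer genes were tested), 3153 under quantile normalization, 3078 under median ratio scaling, 4104 with array weights, 3093 with a sex covariate, 2521 with KO libraries in the fit and 2670 to 3435 when 1 library was left out. Among libraries with Y-linked RNA there were 3479, and without ICM 1, 3 and 4 3330. Replicate numbers did not pair the samples (correlations 0.089, -0.0042 and 0.039); with the replicate block 2968 genes were called, and 713 for the difference of changes. That difference, 827 genes, was less stable: 520 genes (409 higher, 111 lower) with a pseudocount of 0.1, 327 lower with 5, 407 higher and 398 lower under quantile normalization, 340 higher under median ratio scaling, and 458 to 1034 (347 to 822 higher, 110 to 223 lower) when 1 library was left out. The lowest counts came without KO E5.5 library 1 (458), WT E5.5 library 1 (489) and WT E5.5 library 2 (496), and 864 were called without KO ICM 1, 4 and 6. The causes were not tested. The difference in detected genes was 337.3 to 438.7 when 1 library was left out; the exact permutation p was then 0.0556 without an E5.5 library, the smallest 2 against 7 can give. Of 248 named genes, most of them named because they were called, 233 were called and 212 kept the call under every alternative, counts that the naming favours. Small differences that missed the test changed sign: Ftl1 (0.10 under quantile normalization, -0.22 to 0.10 when 1 library was left out), Ubb (-0.0957 quantile, -0.0487 median ratio), Foxo1 (-0.18, -0.0380), Grhl2 (-0.30, -0.22; -0.0236 to 0.29 when 1 library was left out), Uchl1 (-0.0806, -0.22; -0.0870 to 0.34), the pairs in the same order of scalings, and Tdh (0.42 with the replicate block). FPKM gives no absolute depth, so no counting interval could be set.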

Other observations

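Several broad gene groups held calls in both directions between E5.5 epiblast and ICM, and all but the first were called less often than the 56.3% of all tested genes. Of 77 proteasome and ubiquitin conjugation genes, 30 were higher and 27 lower (74% called), against 15 and 30 under median ratio scaling and 23 and 26 under quantile normalization, with proteasome subunits Psmb3 (-1.21) and Psmd8 (-1.38) among the falls and the conjugating enzyme Ube2k (1.62) among the rises. Of 158 solute carriers, 28 were higher and 42 lower (44.3% called): beside the rises of Slc7a3 and Slc16a3, Slc43a3 fell by 5.68, and Slc1a1, a glutamate transporter, was listed at 0 in all 3 E5.5 epiblasts. Of 60 Rab, Vps and sorting nexin genes, 12 were higher and 15 lower (45% called), against 8 and 21 under median ratio scaling, and Rab25, an epithelial Rab, rose by 4.48 while its relative Rab11a fell by 1.85. Of 73 histone and chromatin architecture genes, 12 were higher and 12 lower (32.9% called), against 10 and 18 under median ratio scaling, with H2afy, a variant histone, at -2.55 on the log2 scale, Hmga2 at -2.34 and Hmgb1 at 1.58. Of 29 adhesion and polarity genes, 10 were higher and 3 lower (44.8% called), with Cdh1, E-cadherin, at 1.5 and Podxl, a lumen sialomucin, at 2.37.

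Genes of the X chromosome had a median change of 0.49 over 223 tested, within the 0.27 to 0.63 of the autosomes. This value pools ICMs with and without Y-linked RNA. Against the 4 ICMs with it, the median was 0.55 for X and 0.34 for autosomes. Against the 3 ICMs without it, X had 0.46 and autosomes 0.56, so the offsets were opposite.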
